A study of Gallus gallus with 2 samples.

Results

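The TADs of chicken chromosome 4 (GGA4) in HD3 cells were described by arm and by segments whose limits lie within 2 bins of translocation breakpoints in this cell line. All entries of the deposited TAD list on chromosome 4 were taken, which gave 200 of the 2389 TADs in the list. The short arm (GGA4p) was defined as the TADs ending at or before 16.9 Mb and held 48 TADs. The centromere-proximal part of the long arm (GGA4q.1), from 18.8 to 51.5 Mb, held 74 TADs, and the distal part (GGA4q.2), from 51.5 Mb to the end of the last TAD at 91.3 Mb, held 72 TADs. The remaining 6 TADs lay between 16.9 and 18.8 Mb and are given apart.

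HD3 (LSCC-HD3) is a continuous chicken erythroblast line that goes back to erythroid precursors transformed with an avian erythroblastosis virus, and it was grown in DMEM with fetal bovine and chicken serum. The study used Hi-C on 2 replicates of these cells with no other treatment or cell type in the deposited list, and the contacts of both were combined into 1 map before TADs were called in bins of 50 kb. No replicate error, and so no test over replicates, can be given for any value below: differences are set beside the bin size and beside the range over other chromosomes. These cells carry a normal GGA4 beside derivative chromosomes with parts of it, so that a TAD in the list cannot be assigned to either, and the copies of each segment were not counted here. The chromosomes used for comparison are altered in part as well. The study reports translocations of most macrochromosomes and several microchromosomes, and a copy number change within GGA7p. It also reports lost read coverage on part of GGA2, a duplicated end of GGA1 and disomy of the sex chromosome GGAW. Their part in the values below was not tested. Positions are counted from 1 in the GalGal5 assembly, of which no sequence or gene annotation was used.

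TADs are stretches of chromatin whose loci contact each other more often than loci outside. In vertebrates they form largely by loop extrusion by cohesin, which is halted at bound CTCF, and their borders limit contacts between regulatory elements and genes. The chicken karyotype combines a few large macrochromosomes with many small microchromosomes, which are rich in genes and in G and C. GGA4p was a separate chromosome in the ancestor of birds and was joined to the ancestral chromosome 4 by fusion, so it can be set beside both classes.

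GGA4p was tiled by TADs almost without interruption. Of its 16.9 Mb, 99.7% lay inside TADs, and 46 of the 47 pairs of neighbouring TADs adjoined. The exception was a single bin of 50 kb without a TAD, from 3250001 to 3300000. The 6 TADs between 16.9 and 18.8 Mb adjoined as well and left no free sequence, so the tiled stretch ran on from the chromosome start to 18800000 and comprised 54 TADs. On GGA4q.1 81.5% of the sequence lay inside TADs, and 49 of 73 neighbouring pairs (67.1%) adjoined. On GGA4q.2 the share inside TADs was 64.8%, and 42 of 71 pairs (59.2%) adjoined. The share on GGA4p thus exceeded that on GGA4q.1 by 18.2 percentage points and that on GGA4q.2 by 34.9 percentage points.

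The profile in consecutive windows of 5 Mb showed where on the long arm the free sequence lay. Each of the 3 windows up to 15 Mb was covered to at least 99%. Between 20 and 50 Mb the windows were covered to between 72% and 95%. The lowest values of the chromosome were reached on GGA4q.2, with 33% from 55 to 60 Mb, 28% from 75 to 80 Mb and 46% from 80 to 85 Mb. Coverage was not low throughout this segment, since 96% was reached from 70 to 75 Mb.

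**Figure D1:**
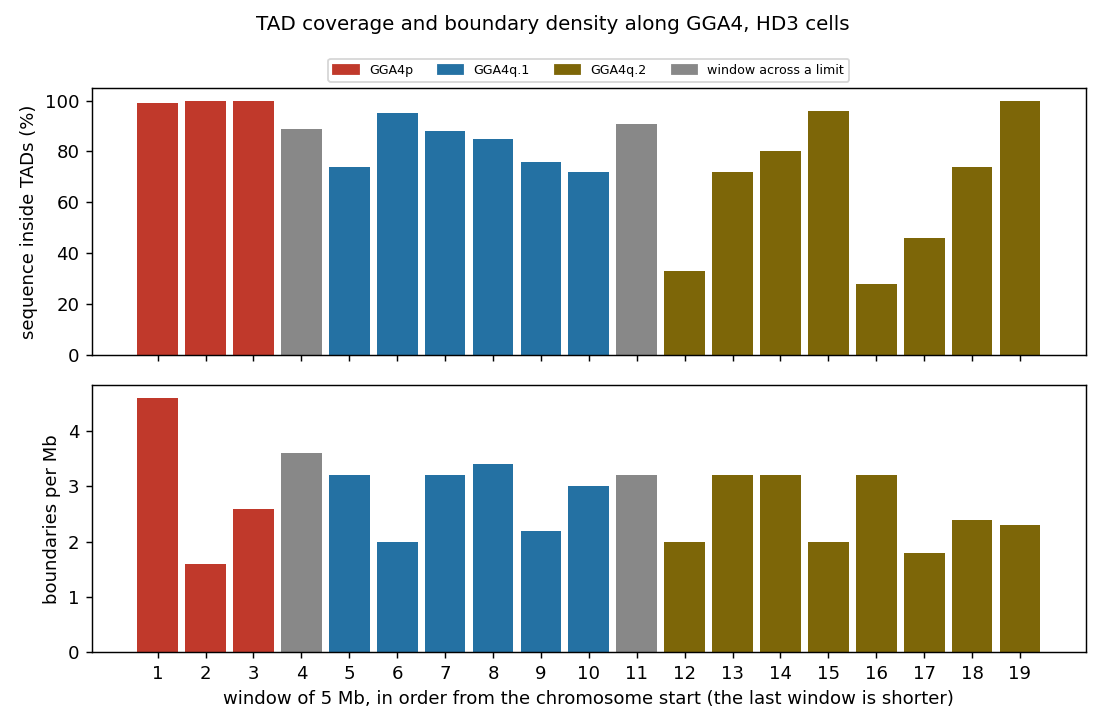
Share of sequence inside TADs (upper panel, %) and boundaries per Mb (lower panel) in 19 windows in order along GGA4, each of 5 Mb except the last of 1.3 Mb, coloured by segment, with windows that cross a segment limit in grey. Coverage was at least 99% in the 3 GGA4p windows and lowest, at 28%, in a GGA4q.2 window, while the boundary density was highest in the window at the chromosome start, at 4.6 per Mb.

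The stretches without a TAD were more numerous and longer on the long arm. GGA4q.1 held 25 of them, with a median of 200 kb and a total of 6050 kb, and GGA4q.2 held 29, with a median of 400 kb and a total of 14000 kb. A length of at least 200 kb was reached by 13 on GGA4q.1, by 21 on GGA4q.2 and by 0 on GGA4p, where the 1 stretch had 50 kb. These are counts and not rates, as GGA4p, GGA4q.1 and GGA4q.2 have 16.9, 32.7 and 39.8 Mb. The first 16.9 Mb of GGA1 and of GGA2 held 0 such stretches as well. On GGA3 and GGA5 to GGA10 that part held between 1 and 8.

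On GGA4q.1 the stretches of at least 200 kb lay mostly before 25 Mb and around 45 Mb. A stretch of 550 kb, from 18.8 to 19.35 Mb, opened the long arm, and further ones lay at 20.2 to 20.45, 24.05 to 24.45 and 24.65 to 24.85 Mb. In the middle of the segment there were only those at 31.8 to 32.2, 37.95 to 38.25 and 39.35 to 39.55 Mb. A cluster followed with 43.65 to 44.3 (650 kb), 44.4 to 44.7, 44.95 to 45.15, 45.25 to 46 (750 kb, the longest of the segment), 46.15 to 46.45 and 46.95 to 47.15 Mb. From there to 51.5 Mb, 13 TADs adjoined over 4350 kb, the longest unbroken run of GGA4q.1 by number of TADs.

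On GGA4q.2 the 3 stretches over 1 Mb lay at 57.05 to 58.45 (1400 kb), 76.45 to 77.95 (1500 kb) and 80.55 to 82.7 Mb (2150 kb). Around the first of these, stretches lay at 53.35 to 53.8, 55.35 to 55.9, 56.1 to 56.9 and 58.55 to 59.15 Mb, so that only 4 TADs, 3 of 100 kb and 1 of 150 kb, lay between 55.9 and 59.15 Mb. Shorter ones followed at 61.4 to 61.85, 61.95 to 62.2, 63.15 to 63.45 and 64.85 to 65.1 Mb, and one of 800 kb at 68.3 to 69.1 Mb. From 69.1 to 73.5 Mb, 9 TADs adjoined over 4400 kb, the longest run of this segment by number of TADs.

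Around the other large stretches of GGA4q.2, free sequence lay at 74.95 to 75.5, 75.85 to 76.25, 78.3 to 78.7, 79.1 to 79.5, 79.75 to 79.95 and 80.05 to 80.35 Mb. The last ones were at 84.75 to 85.05, 85.35 to 85.95 and 86.2 to 86.65 Mb. The chromosome ended in adjoining TADs, the last from 90500001 to 91300000 (800 kb). Gaps in the assembly, repeats and the number of contacts at these stretches were not read, so their part in the missing TADs was not tested.

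The median TAD size differed between the segments by 1 or 2 bins, and the mean by less than a bin. The median was 250 kb on GGA4p (quartiles 150 and 350 kb), 150 kb on GGA4q.1 (100 and 300 kb) and 200 kb on GGA4q.2 (100 and 400 kb). The median of GGA4p was thus 100 kb, or 2 bins, above that of GGA4q.1 and 50 kb, or 1 bin, above that of GGA4q.2. The mean sizes were 351 kb ± 410 (SD, n = 48 TADs), 360 kb ± 596 (n = 74) and 358 kb ± 427 (n = 72), so by the mean GGA4p was lowest, by less than 10 kb. The order of the medians therefore did not hold for the mean. It also turned with the length-weighted median, the size of the TAD at the middle of the summed TAD length, which was 400 kb on GGA4p, 850 kb on GGA4q.1 and 650 kb on GGA4q.2. Without TADs under 150 kb the medians of GGA4p and GGA4q.1 were equal, and that of GGA4q.2 was 25 kb above that of GGA4p.

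TADs of 100 kb, or 2 bins, the smallest size in the list, made up 11 of 48 TADs on GGA4p (22.9%, 95% Wilson interval 13.3% to 36.5%), 32 of 74 on GGA4q.1 (43.2%, 32.6% to 54.6%) and 24 of 72 on GGA4q.2 (33.3%, 23.5% to 44.8%). These intervals overlap between GGA4p and both other segments, and they cover the number of TADs only, treating them as independent. In the whole list the share was 27.3%, which lies inside the intervals of GGA4p and GGA4q.2 and below that of GGA4q.1. TADs of at least 1 Mb numbered 4 on GGA4p (8.33%, 3.29% to 19.6%), 6 on GGA4q.1 (8.11%, 3.77% to 16.6%) and 4 on GGA4q.2 (5.56%, 2.18% to 13.4%), against 5.69% in the list, which lies inside all 3 intervals. They held 38% of the TAD sequence on GGA4p, 47.7% on GGA4q.1 and 25.4% on GGA4q.2. Sizes of 250 to 400 kb were held by 37.5% of the TADs on GGA4p, 21.6% on GGA4q.1 and 19.4% on GGA4q.2.

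**Figure D2:**
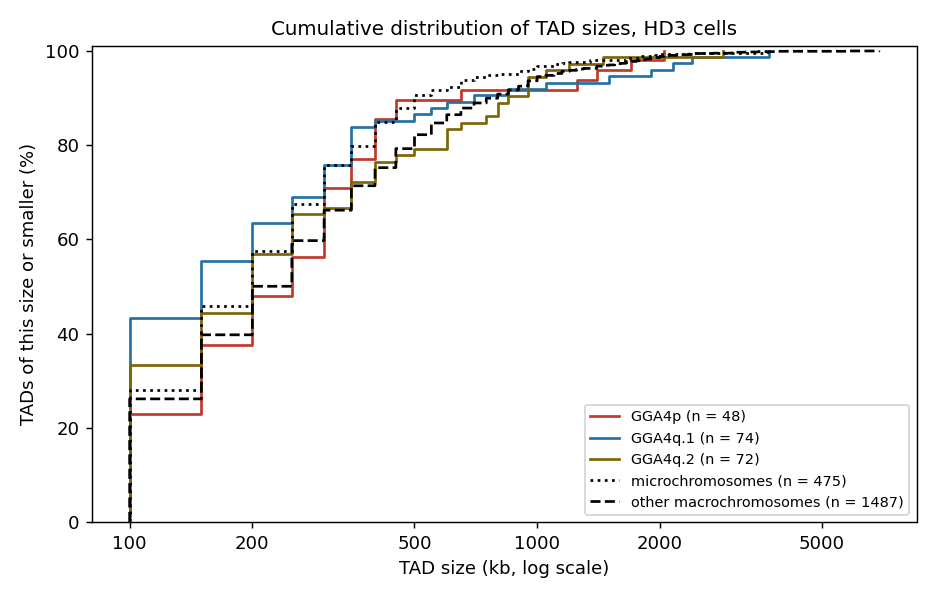
Cumulative share of TADs (%) by size (kb, log scale) for the GGA4 segments, the microchromosomes and the other macrochromosomes, with n the number of TADs. At 100 kb the GGA4q.1 curve is highest, at 43.2%, and the GGA4p curve lowest, at 22.9%, and the curves cross at larger sizes.

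The surroundings of the smallest TADs restate the coverage, since GGA4p held only 1 free stretch and few of its TADs could border on it. All 11 TADs of 100 kb on GGA4p had neighbours adjoining on both sides or lay at the chromosome start. On GGA4q.1, 6 of the 32 lay in free sequence on both sides and 9 on one side. On GGA4q.2 it was 6 and 9 of 24, so that 15 of the small TADs bordered on free sequence in each long arm segment. Of all neighbouring pairs, 24 of 73 on GGA4q.1 and 29 of 71 on GGA4q.2 did not adjoin. TADs of other sizes bordered on free sequence too, so these counts are not read as a trait of small TADs. TADs of 100 kb came in runs of at most 2 on GGA4p, the run nearest the chromosome start lying from 1900001 to 2100000. The longest run on GGA4q.1 was of 5, from 19350001 to 19850000, which are the first TADs of the long arm, and on GGA4q.2 of 3, from 73900001 to 74200000.

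The order of sizes along GGA4p showed smaller TADs before 5 Mb than between 5 and 15 Mb. The median before 5 Mb equalled that of the whole list, 200 kb. Between the chromosome start and 5 Mb there were 21 TADs with a median of 200 kb, of which 8 had 100 kb and the largest 450 kb, each TAD being counted in the window that holds its midpoint. In the next 5 Mb there were 8 TADs, and from 10 to 15 Mb there were 13, both with a median of 300 kb and 1 TAD of 100 kb each. The boundary density was 4.6 per Mb in the outermost window, the highest of GGA4, and 1.6 per Mb in the one behind it, the lowest. The median TAD size of a window was lowest, at 100 kb, from 25 to 30 Mb, a window on GGA4q.1 that also holds the largest TAD of the chromosome. It was highest, at 300 kb, in the windows from 5 to 10, 10 to 15 and 30 to 35 Mb.

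The largest TAD of GGA4p, with 2050 kb, occupied positions 6150001 to 8200000, next to the second largest, from 4450001 to 6150000 (1700 kb), so these TADs together filled 4.45 to 8.2 Mb. The other large TADs lay from 9600001 to 11000000 (1400 kb) and from 14400001 to 15650000 (1250 kb). All 8 flanks of these 4 TADs adjoined another TAD, and none of those neighbours had 100 kb. On GGA4q.1 the largest TAD had 3700 kb (25750001 to 29450000), the next 2400 kb (40100001 to 42500000) and the one after 2150 kb (47350001 to 49500000). Of the 12 flanks of the 6 TADs of at least 1 Mb there, 5 bordered on free sequence and 4 on a TAD of 100 kb. The TAD of 3700 kb had such a small TAD on each side. On GGA4q.2 the largest TADs had 2850 kb (70650001 to 73500000), 1450 kb (86850001 to 88300000) and 1200 kb (52150001 to 53350000). Of the 8 flanks of its 4 large TADs, 5 bordered on free sequence. The border shared by the largest and second largest TAD of GGA4p counts as a flank of each. Of all neighbouring pairs, 1 of 47 on GGA4p, 24 of 73 on GGA4q.1 and 29 of 71 on GGA4q.2 did not adjoin. TADs of 100 kb made up 22.9% on GGA4p and 43.2% on GGA4q.1. With so few flanks, these counts are not read as a trait of large TADs.

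**Figure D3:**
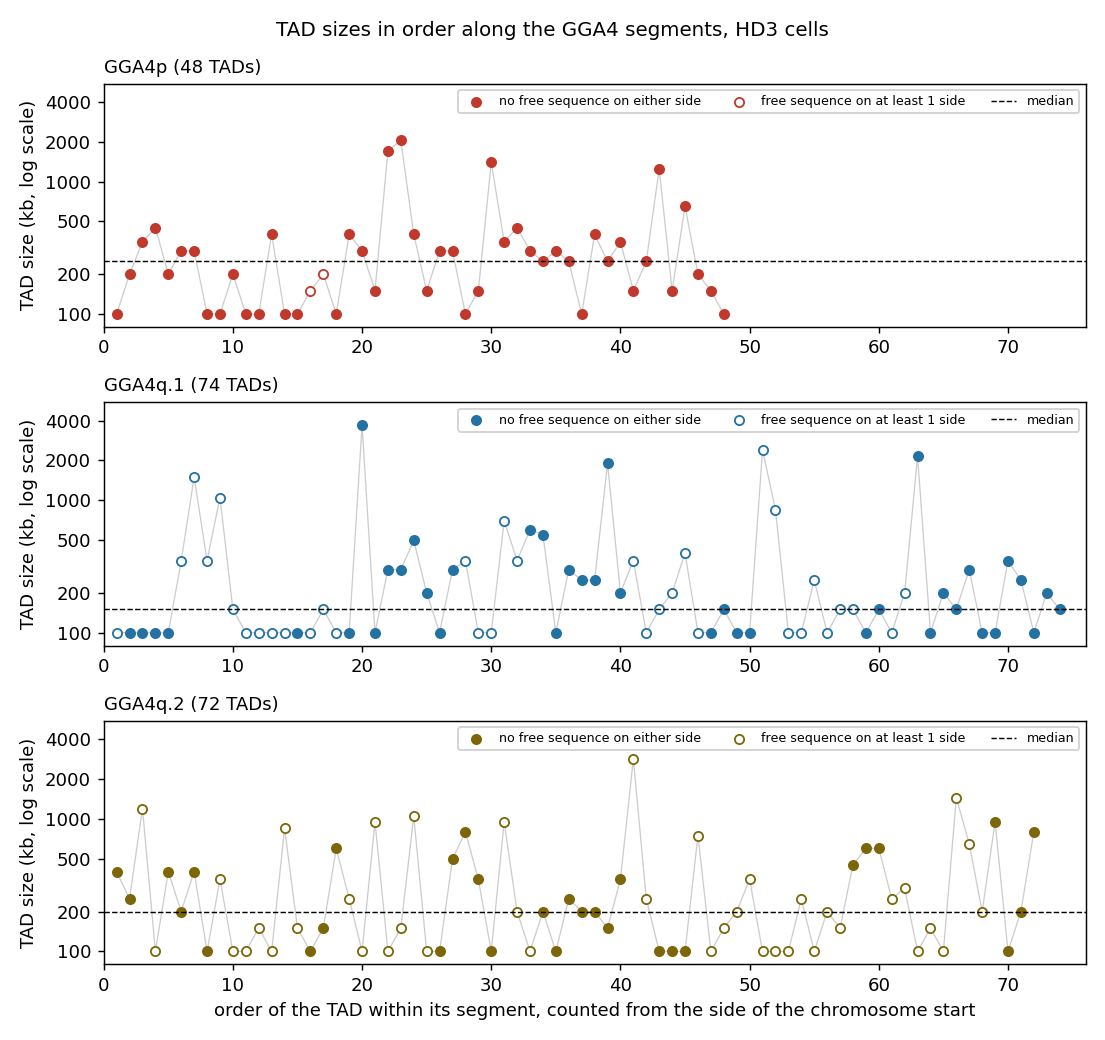
Size of each TAD (kb, log scale) in order along GGA4p, GGA4q.1 and GGA4q.2, with the segment median as a dashed line. Filled points mark TADs with no free sequence on either side, and on GGA4p all but 2 of the 48 points are filled, the open ones being the TADs on both sides of the free bin at 3.25 Mb.

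At the limits of the segments the TADs were as follows. The short arm ended in a TAD of 100 kb, from 16800001 to 16900000, which adjoined a TAD of 300 kb. The TAD before 18.8 Mb, from 18150001 to 18800000, had 650 kb and was followed by the free stretch of 550 kb and then by the TAD of 100 kb that begins at 19350001. At 51.5 Mb a TAD of 150 kb, from 51350001, adjoined one of 400 kb, which ends at 51900000. A TAD edge therefore lay on each of the 3 limits, and no TAD crossed one. The limits only approximate the breakpoints and were set with the TAD list known, so nothing is read from their position on edges.

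The number of boundaries per Mb separated the segments less than coverage did. There were 50 distinct TAD edges on GGA4p, or 2.96 per Mb, 99 on GGA4q.1, or 3.03 per Mb, and 102 on GGA4q.2, or 2.56 per Mb. An edge next to free sequence counts in these values. When only positions between TADs at most 1 bin apart were counted, the density was 2.78 per Mb on GGA4p, 1.5 on GGA4q.1 and 1.06 on GGA4q.2. The densities of GGA4p and GGA4q.1, which were close when all edges were counted, were thus far apart when junctions alone were counted.

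GGA4p was then set beside the 14 microchromosomes with TADs in the list (between GGA11 and GGA27). Coverage, counted up to the end of the last TAD of each, ran from 71.4% on GGA24 to 95.5% on GGA17, and all 14 lay below the 99.7% of GGA4p. On GGA17, where the first TAD begins at 500 kb, the sequence behind that point was covered to 100%, so with the span counted from the first TAD start 13 of 14 lay below GGA4p. The longest stretch without a TAD was at least 200 kb on each microchromosome, against 50 kb on GGA4p. On GGA17 it was the 500 kb before the first TAD, and no other free stretch occurred there. All 39 neighbouring pairs of GGA17 adjoined, against 46 of 47 on GGA4p. The share of adjoining pairs was thus higher than on GGA4p on GGA17 and lower on the other 13.

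The place of GGA4p among the microchromosomes in TAD size depended on the measure. The median was lower on 12 of them and equal, at 250 kb, on 2, and the mean was lower on 13, with only GGA11 higher at 389 kb. The length-weighted median of GGA4p, 400 kb, equalled the middle of the group, with 6 lower, 4 equal and 4 higher. Boundaries were fewer per Mb on GGA4p than on 12 of the 14, and the values of the 14 ran from 2.77 to 4.95 per Mb. Since edges next to free sequence count in this density, the number of TADs per Mb is given too, which was 2.84 on GGA4p, with 6 microchromosomes lower and 8 higher. The share of TADs of at least 1 Mb was lower on 13 and higher on GGA11 alone, at 12.2%. The microchromosomes nearest in length to GGA4p were GGA14, GGA13 and GGA20, with 15.6, 18.45 and 14.15 Mb. GGA14 held 50 TADs with a median of 200 kb and a coverage of 92.9%. GGA13 held 52 with a median of 150 kb and 89.2%, and GGA20 held 39 with a median of 150 kb and 79.9%. The longer GGA11 and GGA12 had 20.25 and 19.95 Mb. GGA11 held 49 TADs with a median of 200 kb and a coverage of 94.1%, and GGA12 held 47 with 200 kb and 76.2%. GGA4p, with 48 TADs, was near all of these but GGA20 in number. It was above each of them in median size and coverage.

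Among the 9 other macrochromosomes, coverage ran from 73.3% on GGA7 to 91.5% on GGA8, all below GGA4p. Their median sizes were 200 kb on 5 and 250 kb on 4, so GGA4p shared the higher value. Its mean was above that of 6 and below that of 3, and its boundary density was above that of 4 and below that of 5. Its 2.84 TADs per Mb exceeded the values of 8 of the 9 taken whole, but those of only 4 of their starts of the same length. GGA4p was thus inside the range of the macrochromosomes in size and boundary density and outside it in coverage.

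Coverage was lower in the starts of the 9 other macrochromosomes. The start of GGAZ was not among these, and it was tiled without a free bin over its first 15.75 Mb. Over the first 16.9 Mb of the 9 other macrochromosomes, coverage ran from 82.5% on GGA5 to 99.1% on GGA2, with a median of 92.6%. The median size in these starts was lower than on GGA4p on 7, equal on GGA6 and higher on GGA2, at 350 kb. In TADs per Mb 4 starts were lower than GGA4p, 1 was equal and 4 were higher. In boundaries per Mb 2 were lower and 7 higher. The start of GGA2 had 150 kb of free sequence in 2 stretches, against 50 kb on GGA4p, so these differed by 2 bins only. Without TADs under 150 kb, 8 of the 9 starts lay below GGA4p. Over the 13 other chromosomes long enough, the best covered window of 16.9 Mb reached between 73.1% and 99.4%, the highest on GGAZ. GGA1 and GGA2 each reached 99.1%, so windows covered almost as fully as GGA4p occurred elsewhere.

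**Figure D4:**
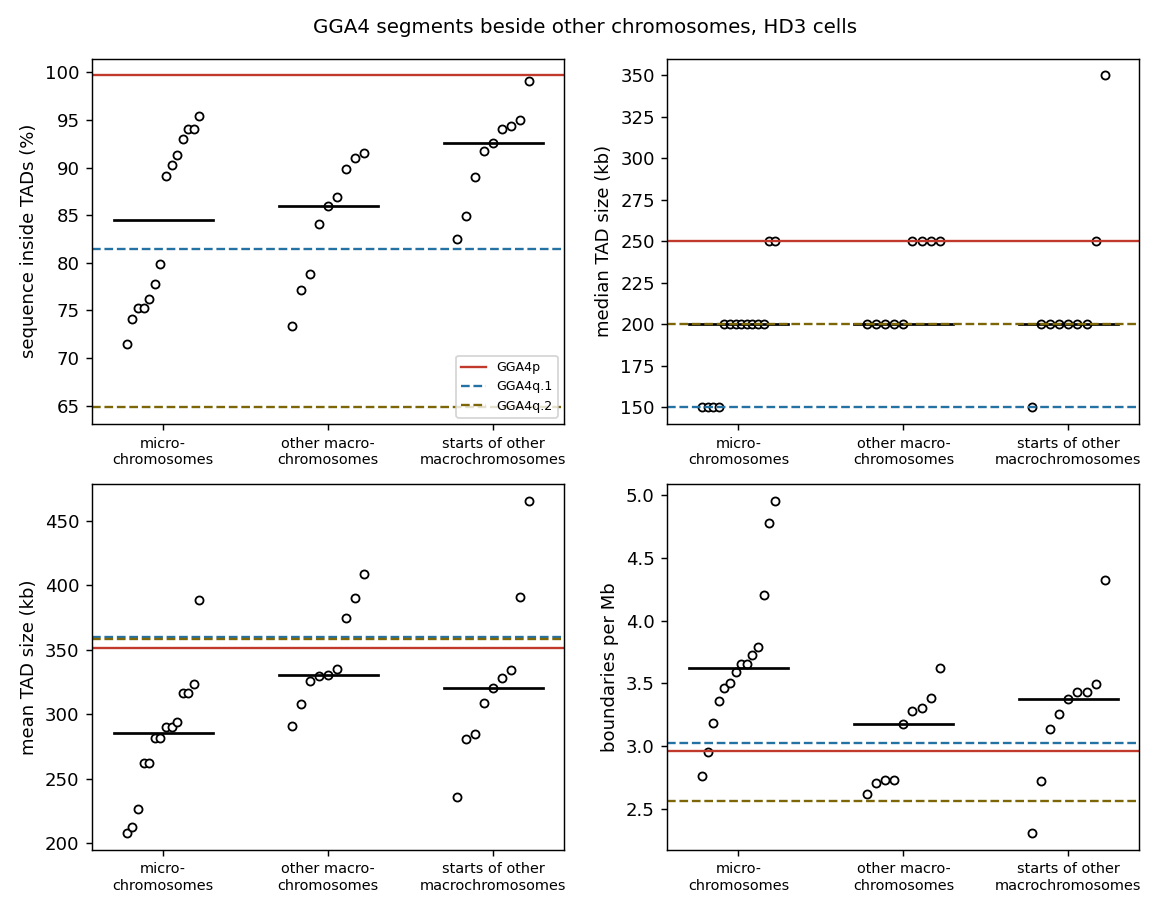
Coverage (%), median and mean TAD size (kb) and boundaries per Mb of the GGA4 segments (horizontal lines) beside single chromosomes or chromosome starts (open circles, with the median of each group as a black bar). The GGA4p line lies above all circles in coverage, at 99.7%, and among the circles in the other panels, and the GGA4q.2 line lies below all circles in coverage, at 64.8%.

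The tiled stretch at the start of GGA4 was also set beside the longest run of TADs on each chromosome. Without any free bin, the longest run on GGA4 had 38 TADs and extended from 3300001 to 18800000, over 15.5 Mb. This was longer than on 24 of the other 25 chromosomes, and GGAZ had one of 15.75 Mb with 42 TADs, which started at its chromosome start. Chromosomes shorter than 15.5 Mb, such as GGA20 (14.15 Mb) and GGA17 (11 Mb), could not hold such a run. The count of 24 therefore follows in part from chromosome length. Among the other macrochromosomes the longest run was that of GGA2, with 12.7 Mb. When a free bin of 50 kb was allowed, the run on GGA4 extended over 18.8 Mb, and the run of GGAZ remained the longest elsewhere. This allowance has the size of the 1 free stretch on GGA4p. It lengthened the longest run on GGA4, GGA13 and GGA26 alone. The median of the longest runs on the other chromosomes, those too short for such a run included, was 6.75 Mb.

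The long arm segments were set beside the same 9 macrochromosomes, taken whole. The share of TADs of 100 kb was above that of all 9 on both segments, at 43.2% and 33.3% against 17.2% to 28.5%. Smaller units reached such shares. The start of GGA5 had 35.6%, and GGA13, GGA15, GGA21 and GGA27 had between 34.6% and 37.5%, all above GGA4q.2 and below GGA4q.1. GGAW, with 20 TADs, had 50%, above GGA4q.1. The median of GGA4q.1, 150 kb, was below the 200 to 250 kb of all 9 and equal to that of the start of GGA1. GGA13, GGA20, GGA26 and GGA27 had a median of 150 kb too, and GGAW had 125 kb. In coverage GGA4q.1 lay inside the range of the 9, with 3 lower and 6 higher, and so it did in boundary density, with 4 lower and 5 higher. GGA4q.2 had a lower coverage (64.8%) and fewer boundaries per Mb (2.56) than all 9, whose lowest values were 73.3% and 2.62. GGAW had a lower coverage than GGA4q.2, at 59.6%, and the start of GGA2 had fewer boundaries per Mb, at 2.31. The mean sizes of both segments lay inside the range of 291 to 409 kb. GGA4 as a whole, with a coverage of 78%, a median of 200 kb and 34% of TADs at 100 kb, joined these different parts: its coverage was above that of only 2 of the 9, and its share of TADs at 100 kb above that of all 9. The value of γ may differ between chromosomes within the range stated for the calling, and contact numbers were not read, so their part in differences between chromosomes was not tested.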

How the data were processed

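The deposited file is 1 list of TAD coordinates for HD3 cells, in the other units of start and end positions in bp, with no contact numbers. The authors mapped reads to GalGal5 and built the heatmap with Juicer tools (version 1.6 in the submitters' processing notes), pooled valid contacts over the replicates, and ran Armatus at a resolution of 50 kb with γ given as a range. The γ of each chromosome and any filter on TADs are not given in the sources used here. The depth behind a TAD is unknown, and positions are no finer than a bin. Starts were counted from 0 and were raised by 1. In all 2389 entries the repeated coordinates were the same, 0 TADs overlapped, and 1 TAD, not on GGA4, ended off a bin edge.

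TAD size was the end plus 1 minus the start. Coverage was TAD length over segment length, with chromosomes measured from their start to the last TAD end. In chromosome starts, coverage included the part of a TAD that crosses the limit. Boundaries were distinct starts and ends. Segment limits lay within 2 bins of the breakpoints given by the study. Macrochromosomes were GGA1 to GGA10 and microchromosomes GGA11 to GGA27 with at least 5 TADs. No test was run, since the list has no replicates and regions are not replicates. The regions named were the TADs next to the limits and chromosome ends, the 3 largest TADs of each segment, stretches without TADs of at least 200 kb, the longest runs, and the windows lowest and highest in median size. The fourth large TAD of GGA4p and the windows of extreme coverage were added after their values were seen. The members, segments and lists were chosen with earlier results of these data known. Values were computed in Python 3.11.15 with pandas 2.3.3 and numpy 2.4.6, intervals with scipy 1.17.1 and plots with matplotlib 3.10.9, and the functions were tested on simulated data. No genome of GalGal5 was used, so no sequences or genes are given.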

Additional observations from a re-analysis of the deposited data

How the results depend on the processing

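Of 98 combinations of 26 values with 12 alternative settings, 78 moved by at most 1 bin for sizes, a factor of 1.5 for counts, densities and coverage, or stayed within the Wilson interval for shares of TADs. The factor of 1.5 is wider than the differences between segments in boundary density, and between GGA4p and GGA4q.1 in coverage. The number 78 therefore does not show that those differences were kept. Without TADs under 150 kb the density was 2.66 per Mb on GGA4p, 2.05 on GGA4q.1 and 1.91 on GGA4q.2. GGA4p, below GGA4q.1 with all TADs, was then above it. Counting a crossing TAD with the stretch before the limit gave the same values by construction, since no TAD crosses it. With the mean, the sizes were 351, 360 and 358 kb on GGA4p, GGA4q.1 and GGA4q.2, and the differences of GGA4p from the others turned to -9.09 and -7.29 kb. With the length-weighted median they were 400, 850 and 650 kb, with differences of -450 and -250 kb. Without TADs under 150 kb, GGA4q.1 held 42 TADs, the medians of GGA4q.1 and GGA4q.2 were 300 and 325 kb, the differences became 0 and -25 kb, and 3 in place of 5 other macrochromosomes had a lower median than GGA4p. Leaving out TADs under 150 kb removed 43.2% of the TADs on GGA4q.1 and 22.9% on GGA4p. The part of this and of the measure in the changes was not tested. With only junctions counted as boundaries, the density was 1.5 per Mb on GGA4q.1 and 1.06 on GGA4q.2. Of GGA11 to GGA15 alone, 5 of 5 had a lower median than GGA4p. Of GGA1, GGA2, GGA3 and GGA5, 0 did, since their medians were all 250 kb, as on GGA4p, while those of GGA6 to GGA10 were all 200 kb. The higher coverage of GGA4p than of both long arm segments held under all 4 settings tried on it. The settings on coverage beside other chromosomes were chosen after seeing the data. Leaving out a replicate was not possible with combined contacts.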
